A study of Homo sapiens with 24 samples.

Results

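The sestrins and a set of other genes that restrain or relay nutrient signals to mTORC1 were followed through the response of 4 leukaemia lines to the compound NVS-ZP7-3. The set was a list of 10 named genes: SESN1, SESN2, SESN3, DDIT4, TSC1, TSC2, DEPTOR, CASTOR2, RRAGD and FLCN. Each was read from its brightest probe set that names a single gene. All 10 had such a probe set, of 19775 genes on the array, and 9 of the 10 passed the filter on low values, as did 10661 genes in all. DEPTOR was the one left out.

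mTORC1 is a kinase complex on the lysosome that switches cells towards growth when amino acids and growth factors are present. The sestrins hold it back: SESN2 and SESN1 bind GATOR2, a complex that keeps the Rag GTPases active, and leucine releases them, while SESN3 is their close relative. CASTOR2 belongs to the CASTOR family, whose CASTOR1 senses arginine at the same complex. DDIT4 (REDD1) acts on the growth factor arm, through the TSC1-TSC2 complex that turns off the small GTPase RHEB, and DEPTOR binds mTOR itself. RRAGD and FLCN do not act as simple brakes. RRAGD is one of the Rag GTPases that bring mTORC1 to the lysosome, and FLCN (folliculin) activates the Rag heterodimers. SESN2 and DDIT4 are known targets of the stress transcription factors ATF4 and CHOP, SESN1 of p53, and SESN3 of FOXO factors.

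The samples were 24 arrays of 4 human cell lines, which the labels name TALL1, SUPT11, P12.ICHIKAWA and RPMI.8402. These are established lines from T-cell acute lymphoblastic leukaemia. Each line had 3 arrays with the solvent DMSO and 3 with NVS-ZP7-3, all after 16 h and all at a final DMSO content of 0.5%. The dose and target of the compound, and whether replicates were separate cultures, are not given in the sources used here, and the p-values therefore cover only array-to-array spread, which may be technical. Values are on the deposited log2 scale, on which 1 unit is a doubling and undetected probe sets sit at a floor of 2.18. A gene is said to have risen or fallen where limma's adjusted p (Benjamini-Hochberg over the 10661 genes tested) was below 0.05. Each probe set has its own affinity, so levels are compared between lines and treatments and never between genes. RNA was measured in bulk, so fewer cells of a kind and less RNA per cell cannot be told apart.

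SESN2 and DDIT4 rose with NVS-ZP7-3 in the same 3 lines, and SESN3 rose in TALL1 and RPMI.8402. The 250 bases before the start of each of these 3 genes are shown because their promoters are where stress factors could act. The sequences are RefSeq's on GRCh38.p14, 5′ to 3′ on the gene's strand, with every copy of ATTGG, the reverse complement of the CCAAT box, in capitals. RefSeq had promoter entries for 7 of the 10 genes.

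SESN2, chr1:28259268-28259517, plus strand: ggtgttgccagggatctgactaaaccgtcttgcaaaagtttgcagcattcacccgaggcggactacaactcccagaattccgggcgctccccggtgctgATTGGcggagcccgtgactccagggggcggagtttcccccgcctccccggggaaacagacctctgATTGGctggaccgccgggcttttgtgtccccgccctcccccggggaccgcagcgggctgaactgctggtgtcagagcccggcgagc

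DDIT4, chr10:72273674-72273923, plus strand: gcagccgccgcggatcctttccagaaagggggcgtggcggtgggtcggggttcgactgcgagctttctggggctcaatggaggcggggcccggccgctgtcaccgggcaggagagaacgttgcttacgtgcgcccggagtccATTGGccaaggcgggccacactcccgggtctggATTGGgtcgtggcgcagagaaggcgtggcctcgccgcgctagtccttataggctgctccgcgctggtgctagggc

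SESN3, chr11:95232476-95232725, minus strand: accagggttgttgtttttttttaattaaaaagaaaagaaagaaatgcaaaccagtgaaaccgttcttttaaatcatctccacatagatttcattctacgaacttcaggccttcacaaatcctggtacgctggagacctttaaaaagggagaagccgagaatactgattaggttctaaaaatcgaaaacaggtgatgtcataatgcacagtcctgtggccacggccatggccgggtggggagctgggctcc

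SESN2 has 2 copies, whose first bases lie 151 and 86 bases before the start, and DDIT4 has 2, at 108 and 75 bases before it. SESN3 has no match in this window. Of the members not shown, SESN1 has a copy at 90 bases before the start in 1 promoter entry and at 75 in another. A further SESN1 entry and those of TSC1, TSC2 and FLCN have none. Of all 35116 promoters, 32.01% hold CCAAT on either strand at least once and 9.53% hold it 2 times or more. This motif was chosen after the sequences had been read. The motif TGATGNAA, a form of the ATF4-CHOP composite site, is in 3.14% of promoters, the MiT/TFE motif TCACGTGA in 0.85% and the ATF6 and XBP1 motif TGACGTGG in 0.61%, searched on both strands. None of the 3 is in the windows of SESN2, DDIT4 or SESN3. The one stretch of a member with such matches belongs to TSC2, where TCACGTGA and TGATGNAA overlap, as shown by the capitals.

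TSC2, chr16:2047862-2047891, plus strand: cggccccgTCACGTGATGCAAggatcgccg

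TSC2 did not pass the test in any line. A match is a description of the letters and not of a bound site.

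T lineage markers were present in every group, with 9 to 11 of 11 at a mean of log2 4 or more and their summed level between 102 and 115 against a summed floor of 24.0. CD5 was within 0.5 of the floor in both TALL1 groups, CD28 in TALL1 with DMSO and CD2 in both P12.ICHIKAWA groups. Summed myeloid markers reached 41.6 on 1 array of RPMI.8402 with DMSO and lay between 15.3 and 23.4 elsewhere (floor 15.3). CD14, CSF1R and MPO were near the floor in every group, but LYZ was not. LYZ read 12.5 on DMSO array 3 and 9.9 on treated array 3 of RPMI.8402. It read 9.0 on treated TALL1 array 1, 8.6 on TALL1 DMSO array 2 and 8.0 on treated P12.ICHIKAWA array 1. S100A8, S100A9 and FCER1G also stood 0.5 or more above the floor on some array of RPMI.8402 with DMSO, and S100A8 in treated TALL1. HBB was above log2 4 on arrays of all 4 lines. It read 9.42, 2.32 and 14.65 in RPMI.8402 with DMSO and 8.63 to 12.99 with treatment. It read 7.96 to 11.4 on the treated P12.ICHIKAWA arrays, 7.96 on treated TALL1 array 1 and 10.61 and 4.58 on treated SUPT11 arrays 2 and 3. All other arrays lay at 2.18 to 2.32, and AHSP was near the floor in every group. ALAS2, another erythroid gene, was near the floor in every group but RPMI.8402 with DMSO. Summed erythroid markers reached 23.2 on 1 array of that group (floor 6.55). B cell genes MS4A1 and PAX5 and epithelial EPCAM, KRT8, KRT18 and CDH1 were near the floor in every group. The B cell genes CD79A and CD79B had means of log2 4 or more in both P12.ICHIKAWA groups. CD79B did so in the SUPT11 and RPMI.8402 groups too. Of the fibroblast genes, COL1A2 was near the floor in every group, and COL1A1 had means of log2 4 or more in both RPMI.8402 groups. With treatment 5 of 11 T lineage markers fell in TALL1, 7 in RPMI.8402, 2 in P12.ICHIKAWA and none in SUPT11. Of all tested genes 19.6%, 21.5%, 2.98% and 0.582% fell in these lines, in the same order. The 3′ minus 5′ difference of the ACTB control probe sets, which follows RNA integrity, rose from DMSO to treated arrays by 0.487 in TALL1 and 0.302 in RPMI.8402, and by 0.048 and 0.0439 in SUPT11 and P12.ICHIKAWA. On treated TALL1 array 2, 19 of 35 genes that this line otherwise lacks and the other lines express were raised, as were 10 of 20 on treated SUPT11 array 2 and 2 of 6 on DMSO array 3 of RPMI.8402. The count of members called in each line was the same without these 3 arrays. The part of the T lineage shift in the members' changes was not tested, and that of RNA integrity was not tested beyond fits with the ACTB difference as a covariate.

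SESN2, a leucine-binding sestrin and the most stress-responsive of the family, had the largest changes of the set. With DMSO it read 7.23, 6.30 and 7.12 on the TALL1 arrays, and with NVS-ZP7-3 10.60, 10.73 and 10.61. In RPMI.8402 it went from 5.30, 4.46 and 4.46 to 8.93, 8.93 and 9.02. In P12.ICHIKAWA it went from 7.13, 7.16 and 6.50 to 8.76, 8.84 and 8.45. SUPT11 read 9.23, 9.29 and 9.48 with DMSO, above all treated arrays of P12.ICHIKAWA and RPMI.8402, and 9.67, 9.63 and 9.55 with treatment. In all 4 lines every treated array stood above every DMSO array, in SUPT11 by a small margin.

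On the log2 scale SESN2 rose by 4.22 ± 0.23 in RPMI.8402 (SE, 3 arrays per group; 18.7-fold; adjusted p = 5.87e-11), by 3.76 ± 0.23 in TALL1 (13.6-fold; adjusted p = 3.18e-10) and by 1.75 ± 0.23 in P12.ICHIKAWA (3.37-fold; adjusted p = 5.06e-05). In SUPT11 the difference was 0.28, with a 95% confidence interval from -0.20 to 0.76, and did not pass the test (adjusted p = 0.962). The response differed among the lines (F test, adjusted p = 6.21e-08). Of the 6 pairs of lines, 5 differed in response. The sixth, TALL1 against RPMI.8402, differed by -0.46 with an interval from -1.14 to 0.22, so the size of the rise in these lines is not told apart on this probe set. The means of the 4 lines spanned 4.60 log2 units with DMSO and 1.97 with NVS-ZP7-3.

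A second, dimmer SESN2 probe set also rose in these 3 lines, but with another order of sizes. In TALL1 it went from 2.89, 2.18 and 2.44 with DMSO to 7.05, 7.45 and 7.02 with treatment. In P12.ICHIKAWA it went from 2.75, 2.57 and 2.47 to 4.88, 4.37 and 4.19, and in RPMI.8402 from 2.18, 2.18 and 2.47 to 4.39, 4.39 and 4.45. The DMSO arrays of these lines lay at or near the floor, below every treated array. It rose by 4.67, 1.88 and 2.13 in these lines, and the floor hides any part of a change below it. In SUPT11 it differed by 0.33 and did not pass the test (adjusted p = 0.915). The rise in RPMI.8402 was thus 4.22 on one probe set, the largest of the lines, and 2.13 on the other, below TALL1 and next to P12.ICHIKAWA. The order of TALL1 and RPMI.8402 in SESN2 response differed between the probe sets, and the part of the floor in this was not tested.

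SESN1, a p53-linked sestrin, changed far less. In TALL1 it read 8.24, 7.78 and 8.06 with DMSO and 8.43, 8.43 and 8.33 with NVS-ZP7-3, a rise of 0.37 ± 0.11 (adjusted p = 0.0133). Treated and DMSO arrays did not overlap there, and the call rested on DMSO array 2, without which the change was 0.24 (adjusted p = 0.0950). The call was also lost with the ACTB difference as a covariate, at 0.25 (adjusted p = 0.326). In SUPT11 the DMSO arrays read 8.88, 8.71 and 8.88 and the treated arrays 8.89, 8.91 and 9.08. In P12.ICHIKAWA they read 8.31, 8.43 and 8.20 against 8.56, 8.43 and 8.37, and in RPMI.8402 8.71, 8.63 and 8.25 against 8.40, 8.39 and 8.42. The respective differences of 0.13, 0.14 and -0.12 did not pass the test.

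SESN3, the FOXO-linked sestrin, was high in SUPT11 and lower elsewhere. Its SUPT11 arrays read 13.95, 13.90 and 14.04 with DMSO and 13.96, 14.03 and 14.32 with treatment, which overlap. P12.ICHIKAWA read 11.86, 11.80 and 11.89 against 11.94, 12.02 and 12.06. TALL1 went from 9.90, 10.07 and 9.95 to 10.46, 10.75 and 10.69, and RPMI.8402 from 10.21, 9.83 and 10.08 to 10.62, 10.56 and 10.40. Both of the lines with the lower levels rose without overlap of the arrays, by 0.66 ± 0.10 in TALL1 (adjusted p = 3.71e-05) and 0.48 ± 0.10 in RPMI.8402 (adjusted p = 9.85e-04). The differences of 0.14 in SUPT11 and 0.16 in P12.ICHIKAWA did not pass.

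The SESN3 probe sets disagreed. There were 7, of which 6 reached log2 4 on some array. The other 5 of these had DMSO means of 9.14 to 10.71 in SUPT11 but at most 4.20 in P12.ICHIKAWA and at most 2.51 in TALL1 and RPMI.8402, so that a change in the last pair of lines could not be seen with them. With the mean of all SESN3 probe sets the changes were 0.11 in TALL1 and 0.053 in RPMI.8402, and neither passed (adjusted p = 0.460 and 0.762).

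**Figure D1:**
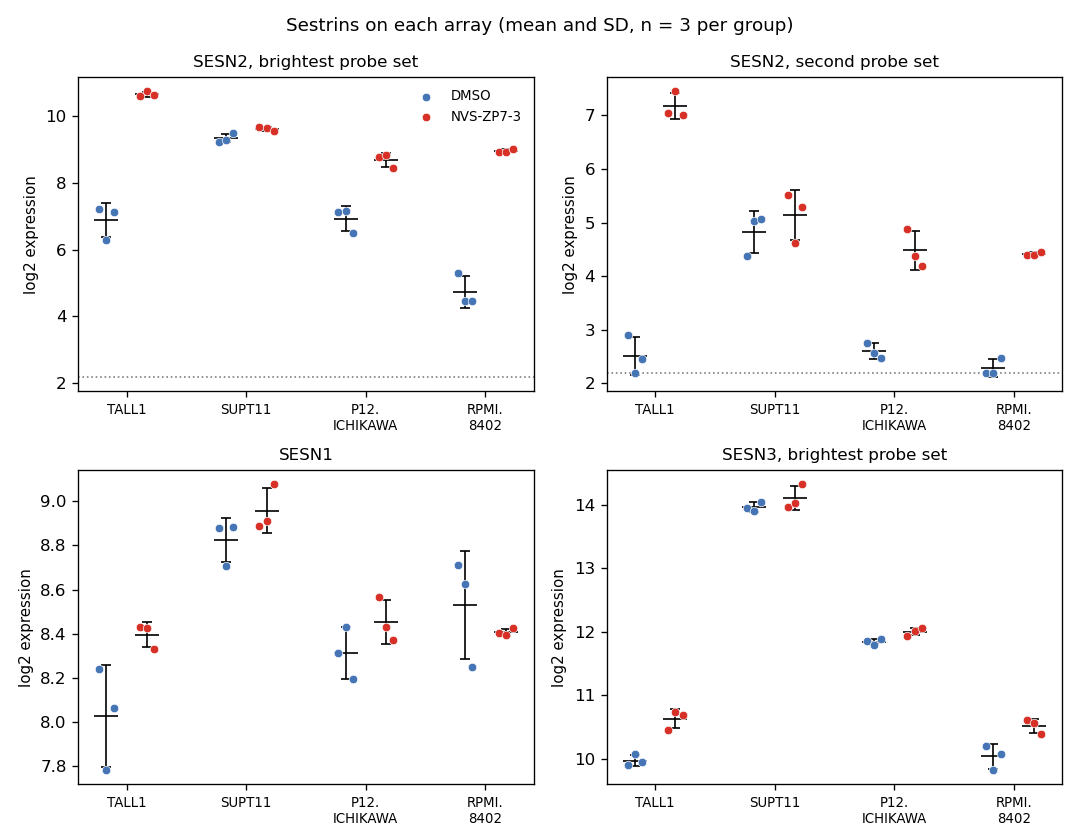
Log2 expression of SESN2 (brightest and second probe set), SESN1 and SESN3 on each array, by line, with DMSO in blue and NVS-ZP7-3 in red. Bars give the mean and SD of 3 arrays and the dotted line marks the floor at 2.18, drawn where the axis reaches it. SESN2 rises in TALL1, P12.ICHIKAWA and RPMI.8402. The DMSO arrays of SUPT11 lie at 9.23 to 9.48.

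DDIT4, the stress- and hypoxia-induced activator of the TSC complex, was bright in all lines and still rose in 3 of them. In RPMI.8402 it went from 11.99, 12.30 and 12.15 to 13.87, 13.78 and 13.88, a rise of 1.70 ± 0.057 (3.24-fold; adjusted p = 5.51e-14). In TALL1 it went from 13.80, 13.80 and 13.76 to 14.48, 14.50 and 14.49, a rise of 0.70 ± 0.057 (adjusted p = 1.24e-08). In P12.ICHIKAWA it went from 12.56, 12.50 and 12.53 to 12.84, 12.93 and 12.87, a rise of 0.35 ± 0.057 (adjusted p = 5.32e-04). Treated and DMSO arrays were apart in all 3 lines. The SUPT11 arrays overlapped, at 14.01, 13.98 and 14.05 with DMSO and 13.98, 13.99 and 13.99 with treatment. The difference there was -0.028, with an interval from -0.147 to 0.0911.

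The DDIT4 response differed in all 6 pairs of lines (F test, adjusted p = 9.99e-11). RPMI.8402 exceeded TALL1 by 0.99, P12.ICHIKAWA by 1.35 and SUPT11 by 1.73. As with SESN2, SUPT11 had the highest DMSO mean, at 14.01, and RPMI.8402 the lowest, at 12.15.

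TSC1 (hamartin) and TSC2 (tuberin) form the complex on which DDIT4 acts, and neither passed the test in any line. TSC1 read 9.43, 9.27 and 9.17 with DMSO in TALL1 and 9.58, 9.52 and 9.27 with treatment. It read 9.41, 9.13 and 9.02 against 9.32, 9.45 and 9.31 in P12.ICHIKAWA, and 9.52, 9.53 and 9.51 against 9.71, 9.68 and 9.68 in RPMI.8402. The differences were 0.17, 0.18 and 0.17 with an SE of 0.092 in each line, and only the RPMI.8402 arrays were apart. In SUPT11, at 9.75, 9.92 and 9.92 against 9.78, 9.85 and 9.76, the difference was -0.067. The RPMI.8402 difference passed with that line fitted alone (adjusted p = 0.00417) and with quantile normalization (0.20, adjusted p = 0.0488). With the ACTB difference as a covariate the TSC1 values became -0.12 in TALL1 and -0.015 in RPMI.8402.

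TSC2 was the least precise member, with an SE of 0.37. Its arrays read 6.86, 5.07 and 5.55 with DMSO and 5.88, 6.08 and 6.52 with treatment in TALL1. SUPT11 read 6.27, 6.47 and 6.06 against 6.38, 6.64 and 6.65. The arrays overlapped in these lines and in the other pair. P12.ICHIKAWA read 6.59, 6.36 and 5.50 against 5.94, 6.17 and 5.20. RPMI.8402 read 5.39, 5.91 and 5.08 against 4.95, 5.11 and 5.44. The TALL1 difference of 0.33 had an interval from -0.45 to 1.11, and without DMSO array 1 it was 0.85 (adjusted p = 0.0454). A change of the size seen for DDIT4 in TALL1 would lie within that interval.

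DEPTOR, which binds mTOR directly, was at or near the floor in 3 lines, with group means of 2.25 to 2.45. In SUPT11 it read 3.08, 3.58 and 3.25 with DMSO and 4.26, 3.85 and 3.89 with NVS-ZP7-3. The SUPT11 arrays were apart, but only 1 array of the series reached log2 4, so DEPTOR was not tested in the main model. In a fit of all genes with no filter its SUPT11 difference was 0.70 ± 0.11 (adjusted p = 0.00287), at a level where the signal is little above background.

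CASTOR2, a relative of the arginine sensor, passed the test in TALL1. It read 8.27, 8.30 and 8.27 with DMSO and 7.70, 7.87 and 8.07 with treatment, a fall without overlap. It fell by 0.40 ± 0.094 on the log2 scale (adjusted p = 0.00198). With the ACTB difference as a covariate the value was -0.37 and the call was lost (adjusted p = 0.0798). In RPMI.8402 CASTOR2 read 8.60, 8.65 and 8.44 against 8.24, 8.37 and 8.62, a difference of -0.15 (adjusted p = 0.226). Treated array 3 set that value, and without it the difference was -0.26 (adjusted p = 0.0376). The SUPT11 arrays overlapped, at 8.57, 8.48 and 8.61 against 8.50, 8.64 and 8.71. So did those of P12.ICHIKAWA, at 7.41 ± 0.095 (SD, n = 3) with DMSO and 7.44 ± 0.026 with treatment. CASTOR2 has a transcribed pseudogene, CASTOR3P, as a near relative, and whether the probe set separates them was not tested.

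RRAGD, a Rag GTPase that is also a known target of the MiT/TFE factors, fell by a small amount in 2 lines on its brightest probe set. In TALL1 it went from 12.03, 12.01 and 11.90 to 11.70, 11.68 and 11.69, and fell by 0.29 ± 0.054 on the log2 scale (adjusted p = 2.82e-04). In RPMI.8402 it went from 10.53, 10.39 and 10.33 to 10.12, 10.20 and 10.17, and fell by 0.25 ± 0.054 (adjusted p = 0.00115). In both the treated arrays lay below the DMSO arrays. In SUPT11 the treated arrays, at 11.15, 11.08 and 11.12, lay above the DMSO arrays, at 10.98, 11.01 and 10.97, but the difference of 0.13 did not pass (adjusted p = 0.450). In P12.ICHIKAWA 11.62, 11.72 and 11.70 stood against 11.61, 11.65 and 11.50, which overlap.

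The second RRAGD probe set gave falls of 0.60, 0.45 and 0.30 in TALL1, P12.ICHIKAWA and RPMI.8402 and a difference of 0.010 in SUPT11. It fell by 0.45 in P12.ICHIKAWA (adjusted p = 0.0142), a line in which the brighter probe set, at -0.094, did not pass. On this probe set P12.ICHIKAWA read 10.94, 10.76 and 10.64 with DMSO and 10.41, 10.47 and 10.12 with treatment, with no overlap. With the mean of the RRAGD probe sets the P12.ICHIKAWA change was -0.27 and passed limma's test (adjusted p = 0.0249). The size of the fall thus depended on the probe set.

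FLCN, the folliculin tumour suppressor, was bright and nearly level. In TALL1 it read 12.47, 12.75 and 12.83 with DMSO and 13.09, 12.86 and 12.90 with treatment, a rise of 0.27 ± 0.10 (adjusted p = 0.0444). That call ended under many alternatives, among them leaving out DMSO array 1 (0.16, adjusted p = 0.246), DMSO array 2 (0.30, adjusted p = 0.0515), treated array 1 (0.19, adjusted p = 0.197) or treated array 3 (0.29, adjusted p = 0.0578). In the other lines treated and DMSO arrays overlapped. SUPT11 read 12.47, 12.51 and 12.37 against 12.38, 12.51 and 12.39. P12.ICHIKAWA read 12.34, 12.24 and 12.38 against 12.35, 12.29 and 12.35. RPMI.8402 read 12.53, 12.25 and 12.70 against 12.33, 12.53 and 12.41. Their differences lay between -0.069 and 0.012.

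**Figure D2:**
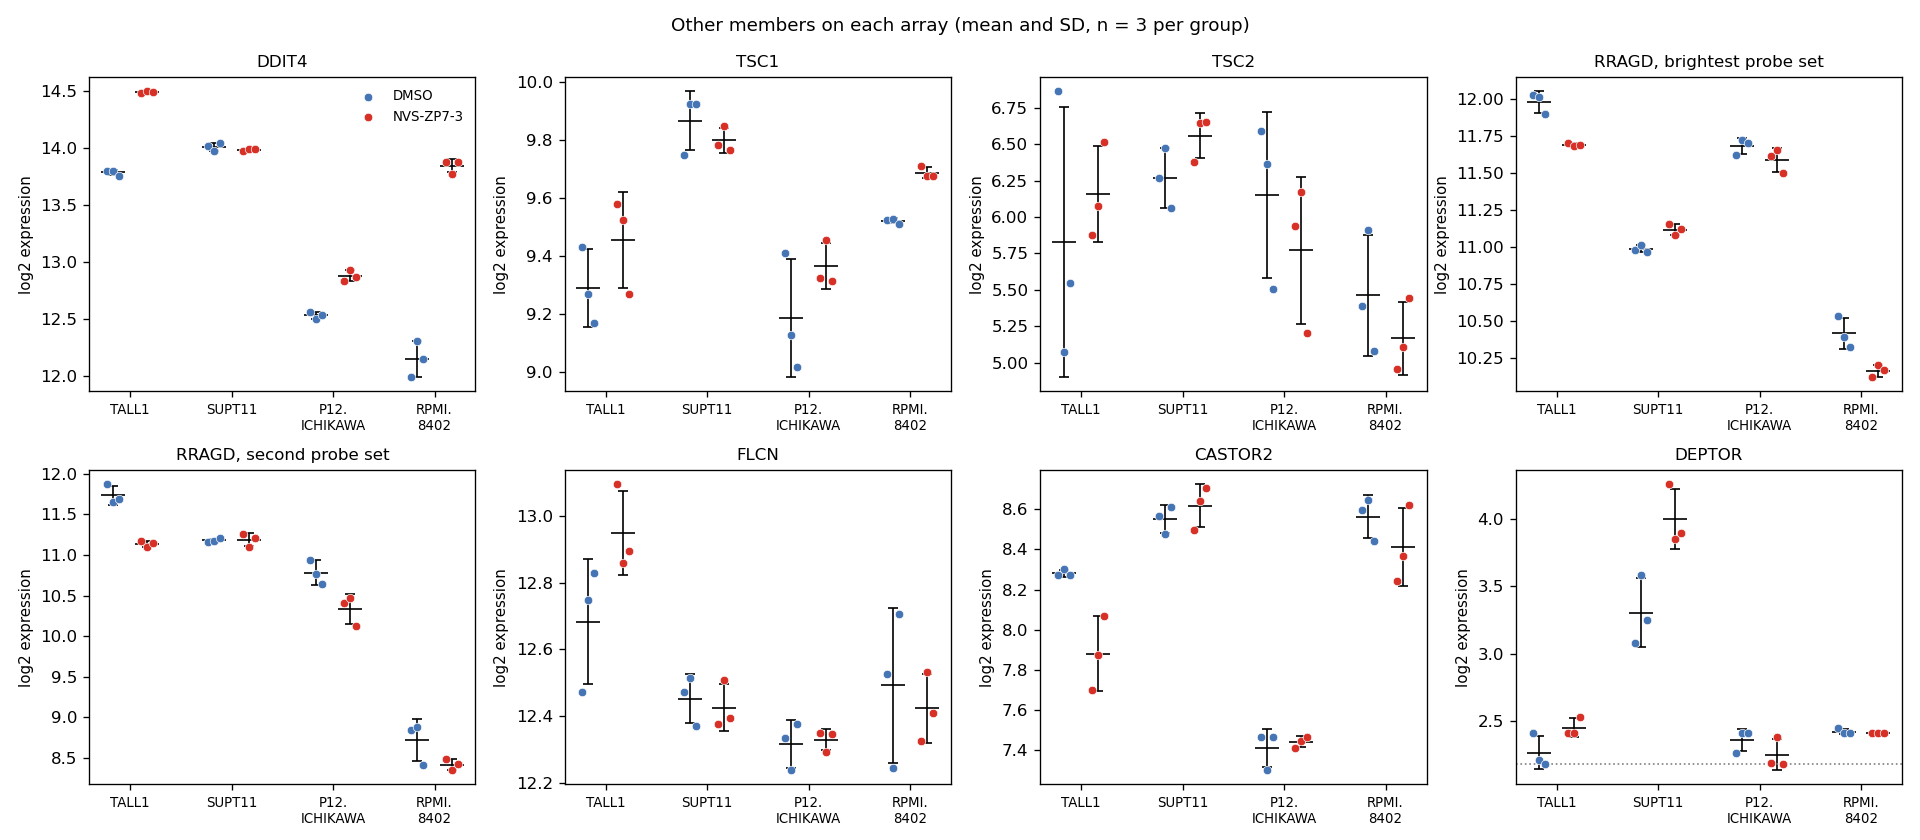
Log2 expression of DDIT4, TSC1, TSC2, RRAGD (brightest and second probe set), FLCN, CASTOR2 and DEPTOR on each array, by line, with DMSO in blue and NVS-ZP7-3 in red. Bars give the mean and SD of 3 arrays, each panel has its own axis, and the dotted line in the DEPTOR panel is the floor. DDIT4 rises in TALL1, P12.ICHIKAWA and RPMI.8402, and TSC2 arrays overlap in every line. RRAGD falls in TALL1 and RPMI.8402 on both probe sets, and in P12.ICHIKAWA on the second.

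Counted together, 5 of the 9 tested members rose in TALL1 (SESN1, SESN2, SESN3, DDIT4 and FLCN) and 2 fell (CASTOR2 and RRAGD), where 22.3% of all tested genes rose and 19.6% fell. The balance over all genes in TALL1 turned with the scaling, from 2377 risen and 2094 fallen to 2147 and 2391 with quantile normalization and 2033 and 2545 with median centring. In RPMI.8402, 3 rose (SESN2, SESN3 and DDIT4) and 1 fell (RRAGD), against 15.1% and 21.5% of all genes. In P12.ICHIKAWA, 2 rose (SESN2 and DDIT4) and none fell on the brightest probe sets, against 4.91% and 2.98%. In SUPT11 limma called no member, against 1.18% and 0.582% of all genes. By the same limma fit 1 member, RRAGD, had an unadjusted p below 0.05 there. The share of all genes below that value was not counted, so no result is read from it. On average over the lines SESN2, SESN3 and DDIT4 rose and RRAGD fell, against 22.4% and 24.5%. With the ACTB difference as a covariate 4 members in place of 7 were called in TALL1, namely SESN2, SESN3, DDIT4 and RRAGD. The median change of the tested members was 0.33 in TALL1, -0.069 in RPMI.8402, 0.14 in P12.ICHIKAWA and 0.13 in SUPT11, where the medians over all genes were between -0.022 and 0.00.

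**Figure D3:**
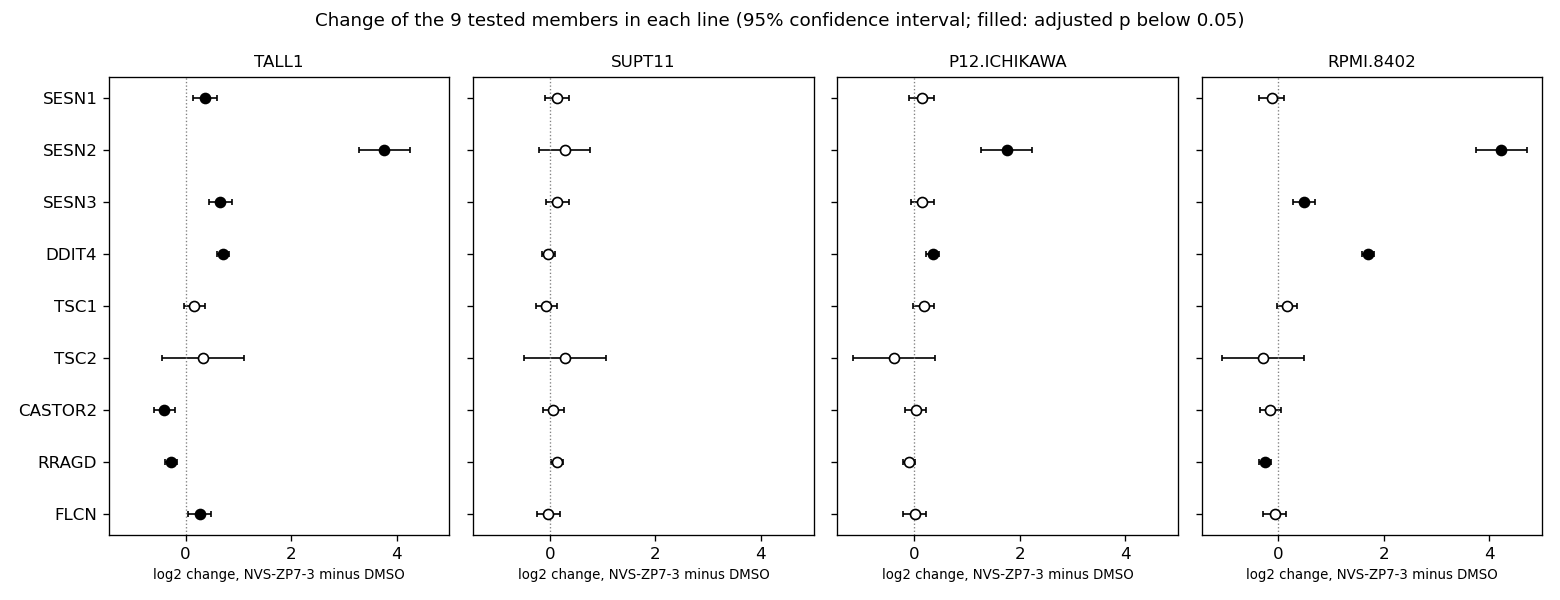
Log2 change with NVS-ZP7-3 (treated minus DMSO) of the 9 tested members in each line, with 95% confidence intervals. Filled points have an adjusted p below 0.05. The widest intervals are those of TSC2, and SUPT11 has no filled point.

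The response differed among the lines for 5 of 9 members by the F test, which called 35.8% of all genes. These were DDIT4 (adjusted p = 9.99e-11), SESN2 (6.21e-08), RRAGD (0.00101), SESN3 (0.0167) and CASTOR2 (0.0306). SESN3 rose more in TALL1 than in SUPT11 by 0.52 (adjusted p = 0.0118) and than in P12.ICHIKAWA by 0.50 (adjusted p = 0.0177). For RRAGD, TALL1 and RPMI.8402 each differed from SUPT11, by -0.42 and, with SUPT11 as the first line, 0.38 (adjusted p = 4.83e-04 and 0.00165). CASTOR2 differed between TALL1 and SUPT11 (-0.47, adjusted p = 0.0138) and between TALL1 and P12.ICHIKAWA (-0.43, adjusted p = 0.0262), and its difference of -0.25 between TALL1 and RPMI.8402 did not pass (adjusted p = 0.193). SESN1 did not pass the F test (adjusted p = 0.108), although its response in TALL1 exceeded that in RPMI.8402 by 0.49 (adjusted p = 0.0323). Its F test passed without TALL1 DMSO array 1 (adjusted p = 0.0363) or RPMI.8402 DMSO array 3 (adjusted p = 0.0142). TSC1, TSC2 and FLCN did not pass the F test.

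Over all genes the response differed in 26.7% between TALL1 and SUPT11, 21.2% between TALL1 and P12.ICHIKAWA and 23.6% between TALL1 and RPMI.8402. It differed in 1.82% between SUPT11 and P12.ICHIKAWA, where SESN2 (by -1.47, adjusted p = 0.0220) and DDIT4 (by -0.38, adjusted p = 0.0171) were the members called. The share was 17.4% between SUPT11 and RPMI.8402 and 14.4% between P12.ICHIKAWA and RPMI.8402.

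With DMSO, 8 of the 9 tested members differed among the lines, all but TSC2 (adjusted p = 0.167). Of all genes 96.3% did, so this count is no more than background. SUPT11 had the highest DMSO mean for SESN1, SESN2, SESN3, DDIT4, TSC1 and TSC2, and also for DEPTOR. The exceptions were CASTOR2, highest in RPMI.8402 at 8.56 and in SUPT11 at 8.55, and RRAGD and FLCN, both highest in TALL1.

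The order of DMSO levels for SESN2 ran from SUPT11 at 9.33 through P12.ICHIKAWA at 6.93 and TALL1 at 6.88 to RPMI.8402 at 4.74. P12.ICHIKAWA and TALL1 were not told apart (TALL1 minus P12.ICHIKAWA -0.043, interval -0.53 to 0.44), and each other neighbour differed. SESN3 ran from SUPT11 at 13.96 and P12.ICHIKAWA at 11.85 to RPMI.8402 at 10.04 and TALL1 at 9.98, of which the last pair was not told apart (adjusted p = 0.603). DDIT4 ran from SUPT11 at 14.01 to TALL1 at 13.79, P12.ICHIKAWA at 12.53 and RPMI.8402 at 12.15, and all neighbours differed. RRAGD ran from TALL1 at 11.98 to P12.ICHIKAWA at 11.68, SUPT11 at 10.99 and RPMI.8402 at 10.42, again with all neighbours apart.

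SESN1 ran from SUPT11 at 8.82 to RPMI.8402 at 8.53, P12.ICHIKAWA at 8.31 and TALL1 at 8.03, and RPMI.8402 and P12.ICHIKAWA were not told apart (adjusted p = 0.0985). TSC1 ran from SUPT11 at 9.86 to RPMI.8402 at 9.52, TALL1 at 9.29 and P12.ICHIKAWA at 9.18, of which the last pair was not told apart (adjusted p = 0.338). CASTOR2 was lowest in P12.ICHIKAWA at 7.41, below TALL1 at 8.28, and SUPT11 and RPMI.8402 were not told apart (adjusted p = 0.917). FLCN spanned 0.37, and no neighbours in its order differed. The shares of all genes that differed with DMSO were 78.9% between TALL1 and SUPT11, 70.3% between TALL1 and P12.ICHIKAWA and 70.8% between TALL1 and RPMI.8402. They were 77.4% between SUPT11 and P12.ICHIKAWA, 79.7% between SUPT11 and RPMI.8402 and 65.0% between P12.ICHIKAWA and RPMI.8402.

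The genes most like each member over the 24 arrays were found among 9912 genes, for members whose group means spanned at least 1 log2 unit. The points share lines and treatments, so the correlations are descriptions with no test. SESN2 went with KIF21B (Pearson r = 0.968), CARS1 (0.963), the cysteinyl-tRNA synthetase, and AACS (0.926). DDIT4 went with ZNF75D (0.960), FKBP2 (0.958) and PPIB (0.955), the last pair being prolyl isomerases of the endoplasmic reticulum. SESN3 went with SPOCK2 (0.989), PTPRC (0.987), which encodes CD45, and GFOD3P (0.986). RRAGD went with CORO1C (0.979), PREP (0.976) and CEP162 (0.971), and CASTOR2 with SCD5 (0.970), FAM210B (0.964) and SPATS2 (0.961). TSC2 had looser company in SAP30BP (0.848), MEPCE (0.835) and METTL22 (0.808).

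The rest of the mTORC1 pathway was counted in 6 lists with 50 tested genes. In TALL1, 17 rose and 8 fell, against 22.3% and 19.6% of all genes. In RPMI.8402, 9 rose and 13 fell, against 15.1% and 21.5%, which is near background. P12.ICHIKAWA had 2 that rose and none that fell (4.91% and 2.98% of all genes), and SUPT11 1 and none (1.18% and 0.582%). The median changes of these 50 genes were 0.095, -0.11, 0.0011 and 0.0035 in the same order, against medians over all genes of -0.022 in RPMI.8402 and 0.00 in the other lines. The counts of single lists, of 4 to 13 tested genes, are to be read against the same shares.

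The mTORC1 core and the TTT complex, which assembles mTOR, held no gene that rose. Of its 6 tested genes 3 fell in TALL1 and 4 in RPMI.8402, with median changes of -0.27 and -0.38. TELO2, a TTT subunit, fell by 0.77 ± 0.15 in TALL1 (adjusted p = 4.59e-04) and by 0.73 ± 0.15 in RPMI.8402 (adjusted p = 8.98e-04). TTI1, its partner, fell by 0.62 and 0.26. TTI2 fell by 0.33 in RPMI.8402, as did RPTOR, which encodes raptor, by 0.88 ± 0.28 (adjusted p = 0.0210).

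GATOR1 and its anchor KICSTOR, which switch the Rag GTPases off, had 2 of 6 genes that rose in TALL1 and 3 that fell in RPMI.8402, with medians of 0.25 and -0.21. KICS2 rose by 0.30 in TALL1, and ITFG2 fell by 0.36 in RPMI.8402. Values of KPTN were -0.21 in each of these lines and of DEPDC5 -0.10 and -0.16, and none passed. In GATOR2, which the sestrins bind, SEC13 was the one of 4 tested genes that rose, by 0.54 in TALL1 and 0.26 in RPMI.8402. SEC13 is also a coat protein of export from the endoplasmic reticulum. MIOS, SEH1L and WDR59 did not pass in any line, with differences between -0.36 and 0.18.

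Of 10 tested genes of the Rag GTPases, Ragulator and folliculin's partners, 4 rose and 2 fell in TALL1, 1 rose in P12.ICHIKAWA, and 1 rose and 4 fell in RPMI.8402. FNIP1, a folliculin partner, rose by 0.43 in TALL1 and 0.41 in RPMI.8402. Its paralogue FNIP2 fell by 0.38 and 0.17 in the same lines. SLC38A9, the lysosomal arginine sensor, rose by 0.47 in TALL1 and 0.37 in P12.ICHIKAWA (adjusted p = 0.00147 and 0.0383), and LAMTOR2 fell by 0.43 in RPMI.8402.

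Other nutrient sensors and brakes had 11 tested genes. In TALL1 6 rose and 1 fell, in P12.ICHIKAWA 1 rose, and in RPMI.8402 3 rose and 2 fell. TRIB3, a pseudokinase that binds AKT, rose by 4.45 ± 0.16 in TALL1, 4.44 ± 0.16 in RPMI.8402 and 2.14 ± 0.16 in P12.ICHIKAWA, while its SUPT11 value of 0.12 did not pass. The leucine transporter subunits SLC3A2 and SLC7A5 rose in TALL1, by 2.14 and 0.95, and in RPMI.8402, by 1.76 and 0.87. PRKAG1, a subunit of the energy sensor AMPK, rose by 0.71 in TALL1.

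Genes that drive mTORC1 or are its substrates showed 4 of 13 risen and 2 fallen in TALL1, 1 risen in SUPT11, and 4 risen in RPMI.8402. EIF4EBP1, the translation repressor that mTORC1 phosphorylates, rose by 1.98 ± 0.12 in TALL1, 0.56 ± 0.12 in SUPT11 (adjusted p = 0.0121) and 0.47 ± 0.12 in RPMI.8402. GRB10, an adaptor that mTORC1 stabilises, rose by 1.82 ± 0.062 in RPMI.8402. TFE3 rose by 0.84 and 0.56 and LPIN1 by 0.49 and 0.47 in TALL1 and RPMI.8402.

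**Figure D4:**
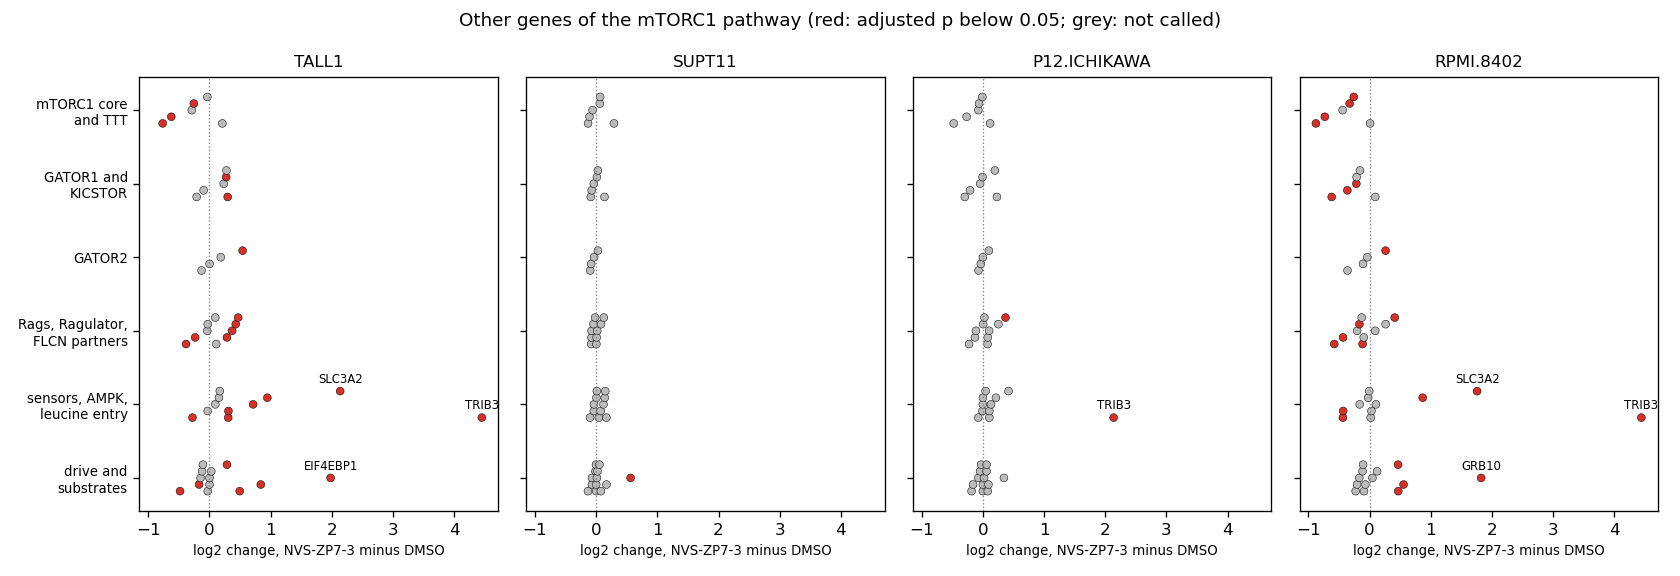
Log2 change with NVS-ZP7-3 of each tested gene of the 6 other mTORC1 pathway lists in each line, with 1 point per gene. Red points have an adjusted p below 0.05 and grey points do not, and the labelled genes are those with the largest changes. TRIB3 and SLC3A2 lie far to the right in TALL1 and RPMI.8402, and the core and TTT list has no red point to the right of 0.

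Genes known to share the members' regulators were counted in the same way. The share of all tested genes that rose was 22.3% in TALL1, 4.91% in P12.ICHIKAWA, 15.1% in RPMI.8402 and 1.18% in SUPT11. Of 13 tested targets of ATF4 and CHOP, 11 rose in TALL1, 10 each in P12.ICHIKAWA and RPMI.8402 and 4 in SUPT11, and none fell. Their median changes were 1.94, 1.32, 1.45 and 0.18 in TALL1, P12.ICHIKAWA, RPMI.8402 and SUPT11. DDIT3, which encodes CHOP, rose in SUPT11 by 2.51 ± 0.14 (adjusted p = 3.17e-09), against 3.28, 2.71 and 4.56 in TALL1, P12.ICHIKAWA and RPMI.8402. CHAC1, which degrades glutathione, rose by 0.76 in SUPT11 and by 3.88, 1.81 and 5.18 in the others, and SLC7A11, the cystine transporter, by 1.44 and by 2.91, 1.96 and 4.68. In SUPT11, then, DDIT3, CHAC1 and SLC7A11 rose where SESN2, DDIT4 and TRIB3 did not pass the test.

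Of 12 tested FOXO targets, 7 rose in TALL1, 4 in P12.ICHIKAWA and 5 in RPMI.8402, with none in SUPT11 and no fall. Their median changes were 0.35, 0.13 and 0.069 in the 3 lines, and 0.14 in SUPT11, where no target was called. In SUPT11 1.18% of all tested genes rose, against 22.3%, 4.91% and 15.1% in TALL1, P12.ICHIKAWA and RPMI.8402. FBXO32, a ubiquitin ligase subunit, rose by 5.62 ± 0.17, 2.04 ± 0.17 and 2.21 ± 0.17 in these lines. GABARAPL1, an autophagy protein, rose by 2.46 in TALL1 and 1.05 in RPMI.8402, and TXNIP, which limits glucose uptake, by 1.87, 0.79 and 0.37. IL7R had values of -0.83 in TALL1 and -1.71 in RPMI.8402 that did not pass.

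Of 11 tested p53 targets, 4 rose and 1 fell in TALL1, 2 rose in RPMI.8402 and 1 each rose in SUPT11 and P12.ICHIKAWA. Of all tested genes, 22.3% rose and 19.6% fell in TALL1, and 15.1% rose in RPMI.8402, 1.18% in SUPT11 and 4.91% in P12.ICHIKAWA. The counts were not tested against these shares. TNFRSF10B, a death receptor that CHOP also induces, rose in all 4 lines, by 0.87, 0.22, 0.50 and 0.25 in that order. RRM2B rose by 1.03 in TALL1, and CCNG1 by 0.32 in TALL1 and 0.23 in RPMI.8402, while TP53INP1 had values of 0.56 and 0.79 that did not pass. Of 7 tested hypoxia and glucocorticoid targets, 3 rose and 2 fell in TALL1, 2 rose in P12.ICHIKAWA, and 5 rose and 1 fell in RPMI.8402. Over all tested genes 22.3% rose and 19.6% fell in TALL1, 4.91% rose in P12.ICHIKAWA, and 15.1% rose and 21.5% fell in RPMI.8402. TSC22D3, a glucocorticoid-induced gene, rose by 5.34, 2.06 and 4.29 and VEGFA by 0.89, 1.03 and 2.01 in these lines, and BNIP3 and KLF9 rose in RPMI.8402, by 1.44 and 1.56. Differences between lines were not tested for these genes.

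Of 11 lysosomal targets of the MiT/TFE factors, the family that also acts on RRAGD and FLCN, 4 rose in TALL1, 1 in P12.ICHIKAWA and 3 in RPMI.8402, with medians of 0.18, -0.033 and -0.019. Of all tested genes 22.3%, 4.91% and 15.1% rose in these lines, and the counts were not tested against these shares. WIPI1, an autophagy protein, rose by 2.36, 0.96 and 3.69, and NEU1, a lysosomal sialidase, by 1.18 in TALL1 and 0.73 in RPMI.8402. CTSD rose by 0.65 in TALL1 and GPNMB by 0.71 in RPMI.8402.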

How the data were processed

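Expression was measured on 24 Affymetrix arrays. The authors deposited 1 table of log2 values for 54675 probe sets, and GCRMA and limma are named in the submitters' processing notes, with versions and settings not given in the sources used here. GCRMA corrects background by probe sequence and normalizes between arrays, so undetected probe sets share a floor and changes below it are lost. Upper quartiles of the arrays lay between 8.54 and 8.65. All columns were mapped by their labels.

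Gene names came from the platform annotation, updated through RefSeq (GRCh38.p14): 41097 had 1 gene, 1801 several and 11777 none, and 41043 matched RefSeq. The single-gene probe set with the highest mean stood for a gene, and 10661 genes that reached log2 4 on 3 or more arrays were tested. With R 4.3.3, limma 3.58.1 (lmFit and eBayes) fitted 8 group means to all 24 arrays, with 16 residual and 18 total degrees of freedom. Intervals are 95% and use the fit's standard error. The Benjamini-Hochberg adjustment ran over all genes tested. The steps were tested on simulated data. The number of arrays limits the precision.

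The members and gene lists were chosen with earlier results of these data known. Every member is described, and up to 4 genes of a list are named, those with the largest absolute mean change over the lines. Same-numbered arrays of a line correlated at -0.141 to 0.424 in their deviations, not all above 0.1, so replicate numbers were not taken as pairs. Alternatives were the low-value filter, other probe sets and their mean, quantile and median scaling, an intensity trend, a replicate block, a line alone, a threshold of 0.01, ACTB or HBB as a covariate, and leaving out arrays, in 1 case (every array with any transcript foreign to its line) chosen after seeing the data. RefSeq gave promoters of 7 of the 10 members.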

Additional observations from a re-analysis of the deposited data

Results flagged for a closer look

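For 5 members the change with NVS-ZP7-3 differed among the 4 lines by limma's F test of the difference itself. The adjusted p was 9.99e-11 for DDIT4, which rose by 1.70 in RPMI.8402, 0.70 in TALL1 and 0.35 in P12.ICHIKAWA and stood at -0.028 in SUPT11. It was 6.21e-08 for SESN2, with 4.22, 3.76, 1.75 and 0.28 in the same order. For RRAGD it was 0.00101, with -0.25, -0.29, -0.094 and 0.13, and for SESN3 0.0167, with 0.48, 0.66, 0.16 and 0.14. For CASTOR2 it was 0.0306, with -0.15, -0.40, 0.032 and 0.066. The same test called 35.8% of all genes. The CASTOR2 result ended under many changes. Its adjusted p was 0.0594 with no filter, 0.0789 with quantile normalization, 0.0539 with an intensity trend and 0.206 with the ACTB difference as a covariate. It was 0.0501, 0.0630 and 0.0555 without TALL1 DMSO arrays 1, 2 and 3, 0.0858 and 0.0623 without treated TALL1 arrays 1 and 2, 0.0527 without SUPT11 DMSO array 2 and 0.0526 without treated SUPT11 array 3. It was 0.0824 without all 3 arrays with foreign transcripts. The SESN3 result ended with the mean of all its probe sets (adjusted p = 0.737), without those 3 arrays (0.0846) and with the ACTB covariate (0.132). Without those 3 arrays the test passed for SESN1 (adjusted p = 0.0373), and with HBB as a covariate it passed for FLCN (adjusted p = 0.0487).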

How the results depend on the processing

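Of 604 values of members under other settings, 553 kept their direction and side of the threshold, 23 lost the call, 9 gained one and 19 changed sign, none of them called with the new sign. On leaving out each array in turn the counts were 398 of 432, with 5 lost, 15 gained and 14 of changed sign. SESN2 and DDIT4 kept their calls in TALL1, P12.ICHIKAWA and RPMI.8402 under every alternative run, at adjusted p-values up to 0.0434. With the ACTB covariate the members called in TALL1 were 4 in place of 7 and those with unequal response 3 in place of 5, as also at a threshold of 0.01 (3). Without a filter 1 member, DEPTOR, was called in SUPT11 in place of none. Counts over all genes in SUPT11 fell from 188 to 107 at 0.01 and 33 with the line alone, in P12.ICHIKAWA from 841 to 434, to 388 with HBB as a covariate and to 220, and for unequal response from 3818 to 2389 at 0.01. The causes were not tested, except that a line alone leaves fewer arrays.

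SESN3 turned sign on other probe sets: in SUPT11 to -0.023 with their mean and -0.12, -0.20 and -0.18 singly, in P12.ICHIKAWA to -0.065 and -0.22, -0.15, -0.24 and -0.0042, and in RPMI.8402 to -0.12 on 1. With the ACTB covariate TSC1 became -0.12 in TALL1, -0.015 in RPMI.8402 and -0.021 over the lines, and TSC2 -0.17 in TALL1. With HBB as a covariate TSC2 over the lines became 0.089, FLCN in P12.ICHIKAWA -0.17 and FLCN over the lines -0.050. CASTOR2 in P12.ICHIKAWA became -0.0010 with quantile normalization, and FLCN in RPMI.8402 0.037 without every array with foreign transcripts. Leaving out 1 array gave TSC2 values of -0.047 to 0.85 in TALL1 and -0.11 to 0.12 over the lines, CASTOR2 values of -0.023 to 0.059 in P12.ICHIKAWA, and FLCN values of -0.067 to 0.0041 in SUPT11, -0.027 to 0.043 in P12.ICHIKAWA and -0.19 to 0.037 in RPMI.8402. TSC1 passed in TALL1 without treated array 3 (0.26, adjusted p = 0.0348).

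The replicate numbers were not taken as pairs, as same-numbered arrays of a line correlated at -0.141 to 0.424 in their deviations. These values do not settle whether the numbers pair the arrays. With the replicate block the FLCN call in TALL1 was lost (adjusted p = 0.110), the CASTOR2 test of unequal response no longer passed (adjusted p = 0.0942) and the mean TSC1 change of 0.11 passed (adjusted p = 0.0384). In the same fit 4192, 132, 600 and 3603 genes were called in TALL1, SUPT11, P12.ICHIKAWA and RPMI.8402. Signal over the floor limits DEPTOR, the second SESN2 probe set with DMSO and the SESN3 probe sets outside SUPT11.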
